A study of Mus musculus with 186 samples.

Results

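Gata3, Foxa1, Elf5, Elf3, Ehf, Tbx3, Grhl2, Spdef, Xbp1 and Myb encode transcription factors known from the luminal lineage of the mammary gland, and their reads were followed across single cells of the adult mouse gland. The 10 genes were chosen by name and matched by Entrez identifier and symbol. No measured value is in the rule, but earlier results of these data were known when the genes were chosen. All 10 are among the 27179 genes listed for each cell and among the 14772 that reached 1 CPM (counts scaled to the cell's library total) in at least 3 cells.

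The mammary duct has an outer layer of contractile basal cells and an inner layer of luminal cells. Luminal cells fall into hormone-sensing cells, which carry the oestrogen and progesterone receptors, and progenitor cells, from which the milk-secreting alveolar cells arise. GATA3 is required for luminal differentiation, FOXA1 opens chromatin for the oestrogen receptor, and ELF5, which is encoded near its Ets-family relative EHF, directs the alveolar fate.

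The cells came from adult female FVB/NJ mice with no further treatment or allele named in the labels, 96 sorted as basal (no blood or endothelial surface marker, high CD29, CD24 present) and 90 as luminal (the same gate with low CD29). The series text counts 8 mice, but no label ties a cell to a mouse, so each population stands as 1 sample, its cells are not replicates, and no p-value was computed. Capture used the Fluidigm C1, whose microfluidic sites hold and lyse a cell each and amplify its cDNA. The labels place basal cells on PCR plate A or B and luminal cells on PCR plate B or C, and only plate B has cells of both populations.

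Total counts ran from 3105 to 3784407 per cell. The thresholds on reads and genes, which were set lower for basal cells, left 72 basal cells (50 on plate A, 22 on plate B) and 76 luminal cells (24 on plate B, 52 on plate C). Their median counts were 1189246 and 1459556 reads after removal of mitochondrial and ribosomal protein genes. At an equal 50000 reads a basal cell had a median of 2626 detected genes and a luminal cell 3392. At least 4 of 10 luminal markers were detected in 75 of 76 luminal cells, and at least 4 of 10 basal markers in 69 of 72 basal cells. Some wells stood apart from their label. At least 4 of 10 markers of an endothelial, fibroblast or pericyte list were detected in 9 luminal and 7 basal cells, although endothelial cells carrying CD31 were gated out. Fibroblast markers reached 10 of 10 in luminal cells 33 and 54, and their highest sum in any luminal cell was 37671 CPM. Endothelial markers reached 9 of 10, and no cell had more than 1 of 10 immune markers. Basal cell 90 had 7 luminal markers and 0 basal ones, and luminal cell 63 had 8 basal markers beside 7 luminal ones. These 18 cells, called doubted cells below, are kept in the values, and ratios and correlations are also given without them.

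Promoter sequence is shown for Foxa1 and Elf5, whose joint presence in luminal cells was examined below. RefSeq windows of GRCm38.p6 matched 7 of the 10 factors with 8 starts, and Ehf, Tbx3 and Grhl2 have no entry in the table. The 250 bases before each start were searched on both strands for the letters GATAA (GATA factors), GTAAACA (forkhead factors), AGGAAG (Ets factors) and AACCNGTT (grainyhead factors), which do not overlap one another here. Among all 32851 windows of this length, 22.6% held the first, 3.17% the second, 29.5% the third and 1.79% the fourth. Foxa1 held the forkhead letters, the inner start of Elf5 held the GATA letters on the reverse strand, Spdef held the Ets letters, and no other match was found in the 8 windows. The Foxa1 stretch is chr12:57546122-57546361 on the minus strand and the Elf5 stretch is chr2:103423818-103424061 on the plus strand, both without the bases that GENCODE counts as transcribed, written 5′ to 3′ with the matches in capitals.
Foxa1: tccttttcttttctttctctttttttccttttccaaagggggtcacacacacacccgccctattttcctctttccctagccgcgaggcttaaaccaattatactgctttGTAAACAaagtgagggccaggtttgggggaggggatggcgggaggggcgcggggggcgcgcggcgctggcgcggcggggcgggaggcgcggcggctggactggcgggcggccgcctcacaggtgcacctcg
Elf5: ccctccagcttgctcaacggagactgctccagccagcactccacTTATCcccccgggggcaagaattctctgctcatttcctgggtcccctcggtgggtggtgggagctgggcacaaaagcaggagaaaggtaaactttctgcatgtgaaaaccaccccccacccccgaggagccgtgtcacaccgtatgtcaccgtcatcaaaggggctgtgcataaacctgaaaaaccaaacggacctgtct

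Across the populations, 9 of the 10 factors were higher in luminal cells by at least 1 on the log2 scale, where 28.4% of all 14772 genes were. None was higher in basal cells by that much, where 18.3% of genes were. Each ratio sets the summed luminal CPM over the summed basal CPM, with 1 CPM added to both, on the log2 scale. Its median over the 10 factors was 3.01 and over all genes 0.18. The medians of the 10 lower and the 10 upper bounds were 2.88 and 3.10, which are not an interval of that median. The bounds of a ratio set the low luminal limit over the high basal limit, and the reverse. The intervals here and below rest on exact 95% Poisson limits for reads and Clopper-Pearson limits for shares of cells. They cover counting error only, since PCR reads without molecular identifiers are not independent molecules. Spdef had 0 basal reads, and with its ratio set to the bound that 3 basal reads allow the median was 4.29. TMM factors shifted the median of all genes by -0.15 and median-of-ratios factors by -0.17, and the 9 factors stayed above 1 with either. Without the doubted cells the ratios ran from -0.58 for Grhl2 to 6.86 for Foxa1, and those of the same 9 factors stayed above 1.

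Gata3 (Entrez 14462, chromosome 2, 9857078 to 9887953, minus strand), the GATA factor of luminal differentiation, was read in cells of both populations and was not limited to luminal cells. Per luminal cell it ran from 1.69 CPM through a median of 565 to 5916 CPM, and per basal cell from 0.78 through 179 to 2892 CPM. The ranges overlapped almost wholly, and every passing cell of either kind had a Gata3 read. Summed levels were 991 CPM (985 to 997) in luminal and 372 CPM (368 to 376) in basal cells, a log2 ratio of 1.41. On plate B alone the ratio was 0.82, below 1. There the basal level was 637 CPM, against 240 CPM on plate A. Basal cell 94 on plate B held 4026 of the 31301 basal reads.

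Tbx3 (Entrez 21386, chromosome 5, 119670534 to 119684724, plus strand), a T-box repressor known from mammary bud formation and from hormone-sensing cells, was detected in more luminal than basal cells. Luminal cells ran from 0 through a median of 124 to 3125 CPM and basal cells from 0 through 0 to 1216 CPM. At 50000 reads per cell a Tbx3 read was found in 54 of 76 luminal cells (71.1%, 59.5 to 80.9) and in 14 of 72 basal cells (19.4%, 11.1 to 30.5). The summed levels of 288 and 53.5 CPM gave a ratio of 2.41, which was 1.02 on plate B and 3.99 between basal plate A and luminal plate C. Basal cell 70 held 1704 of the 4500 basal reads and basal cell 90 held 1564, the latter being the well with 0 basal markers, both on plate B. Without basal cell 70 the ratio was 3.05, and without the 18 doubted cells it was 3.02.

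Foxa1 (Entrez 15375, chromosome 12, 57540628 to 57548029, minus strand), the forkhead partner of the oestrogen receptor, was close to absent from basal cells. Its luminal values ran from 0 through a median of 14.0 to 1746 CPM. Of 72 basal cells 8 had any read at full depth, and basal cells 13 and 40 with 49 and 27 reads held all but 6 of the 82. At 50000 reads it was found in 42 of 76 luminal cells (55.3%, 43.4 to 66.7) and 3 of 72 basal cells (4.17%, 0.87 to 11.7). The sums of 216 and 0.97 CPM gave a ratio of 6.78 (6.60 to 6.95), the largest of the 10 on this scale, and 7.53 on plate B.

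Myb (Entrez 17863, chromosome 10, 21124930 to 21160984, minus strand), a regulator of proliferation that responds to oestrogen in breast cells, had 9 basal reads in 5 cells and 8255 luminal reads in 44 cells. Luminal cells ran from 0 through 2.87 to 497 CPM. At 50000 reads it was found in 31 of 76 luminal cells (40.8%, 29.6 to 52.7) and 0 of 72 basal cells, where the upper limit is a share of 4.99%. Its ratio was 6.05 (5.90 to 6.16) and 6.30 on plate B.

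Elf5 (Entrez 13711, chromosome 2, 103412098 to 103450989, plus strand), the Ets factor of the alveolar fate, was rare even in luminal cells. Its median luminal level was 0 and its highest 1432 CPM. It was found at 50000 reads in 18 of 76 luminal cells (23.7%, 14.7 to 34.8) and 0 of 72 basal cells, with the same upper limit of 4.99%. Luminal cell 45 held 2796 of the 5725 luminal reads, and 1 read was counted in basal cells. The sums were 50.2 and 0.01 CPM and the ratio 5.66 (5.55 to 5.71), or 4.74 without luminal cell 45.

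Ehf (Entrez 13661, chromosome 2, 103263431 to 103303275, minus strand), an epithelial Ets factor that lies 108822 bases from Elf5, ran from 0 through a median of 48.7 to 1967 CPM in luminal cells. It was found in 46 of 76 luminal (60.5%, 48.6 to 71.6) and 2 of 72 basal cells (2.78%, 0.34 to 9.68) at 50000 reads, so the neighbours differed in how many luminal cells carried them. The sums of 259 and 5.59 CPM gave 5.30. Basal cell 20 held 399 of the 470 basal reads, and without it the ratio was 7.13.

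Elf3 (Entrez 13710, chromosome 1, 135253574 to 135258472, minus strand), another epithelial Ets factor, had luminal values from 0 through 14.7 to 2345 CPM. It was found in 40 of 76 luminal (52.6%, 40.8 to 64.2) and 5 of 72 basal cells (6.94%, 2.29 to 15.5). The sums of 178 and 17.4 CPM gave 3.28, and the ratio was 6.41 on plate B. Basal cell 26 held 905 of the 1464 basal reads and the ratio was 4.53 without it.

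Spdef (Entrez 30051, chromosome 17, 27714446 to 27731003, minus strand), an Ets factor of secretory epithelia, was read in 5 luminal cells and in 0 of 72 basal cells. The 5 cells had 355, 243, 31, 12 and 1 reads, a sum of 5.63 CPM, at least 158-fold higher than the 3 basal reads that a count of 0 allows over the group. Luminal cells 29 and 26 held the larger counts, and the log2 ratio of 2.73, which depends on the added 1 CPM, was 1.82 without cell 29, so little more can be said of Spdef at this depth.

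Xbp1 (Entrez 22433, chromosome 11, 5520641 to 5525993, plus strand), which drives the unfolded protein response and secretory capacity, was, with Gata3, the most evenly spread over luminal cells. These ran from 0 through 39.5 to 543 CPM, and 10 cells were needed to make up 50% of the reads. It was found in 46 of 76 luminal (60.5%, 48.6 to 71.6) and 15 of 72 basal cells (20.8%, 12.2 to 32.0). Sums were 104 and 25.7 CPM and the ratio 1.98, with 3.38 on plate B, 1.37 between plates A and C and 2.71 without the doubted cells, among them basal cell 48 with 450 of the 2166 basal reads.

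Grhl2 (Entrez 252973, chromosome 15, 37232821 to 37363569, plus strand), a grainyhead factor of epithelial junction genes, was the exception. Luminal cells ran from 0 through 21.3 to 1259 CPM and basal cells from 0 through 5.60 to 4773 CPM. It was found at 50000 reads in 43 of 76 luminal (56.6%, 44.7 to 67.9) and 29 of 72 basal cells (40.3%, 28.9 to 52.5), shares whose intervals overlap. The sums were 76.2 CPM in luminal and 99.9 CPM in basal cells, a log2 ratio of -0.39 (-0.45 to -0.32). Basal cell 19 alone held 4010 of 8401 basal reads. Without it the ratio was 0.52, and on plate B it was 0.30, so its sign rested on that cell.

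**Figure D1:**
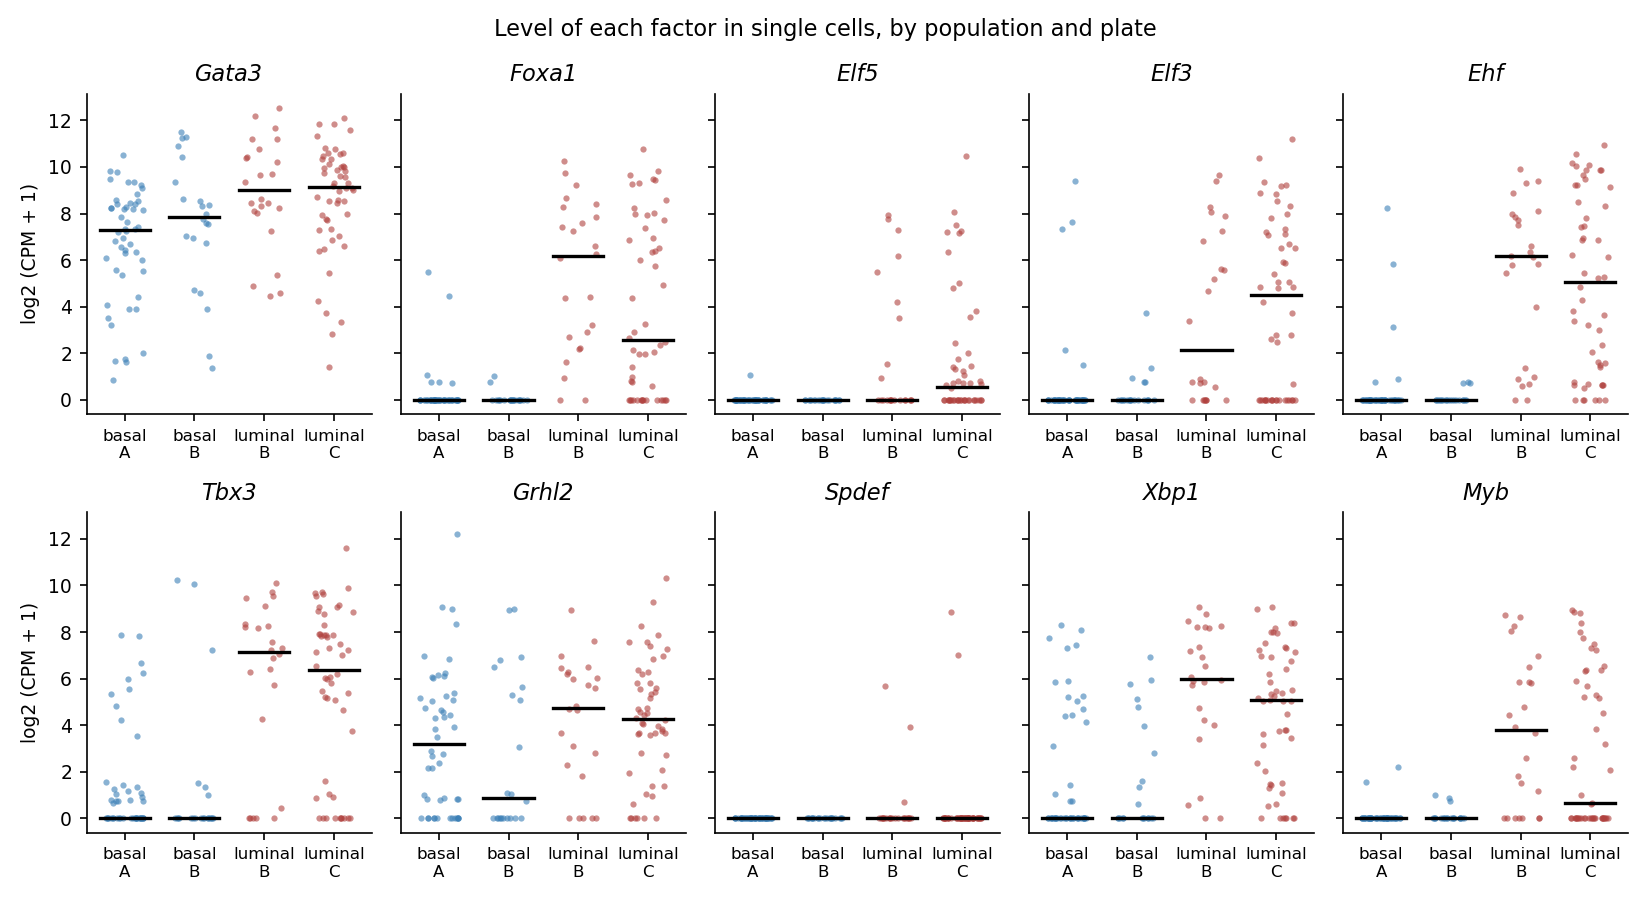
Level of each factor in every passing cell as log2 (CPM + 1), with a point per cell, columns for basal plates A and B and luminal plates B and C (72 basal and 76 luminal cells), and a bar at the median. Gata3 and Grhl2 show points well above 0 in all 4 columns, whereas basal points of Foxa1, Elf5, Ehf, Elf3 and Myb lie at 0 apart from 10 or fewer cells.

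**Figure D2:**
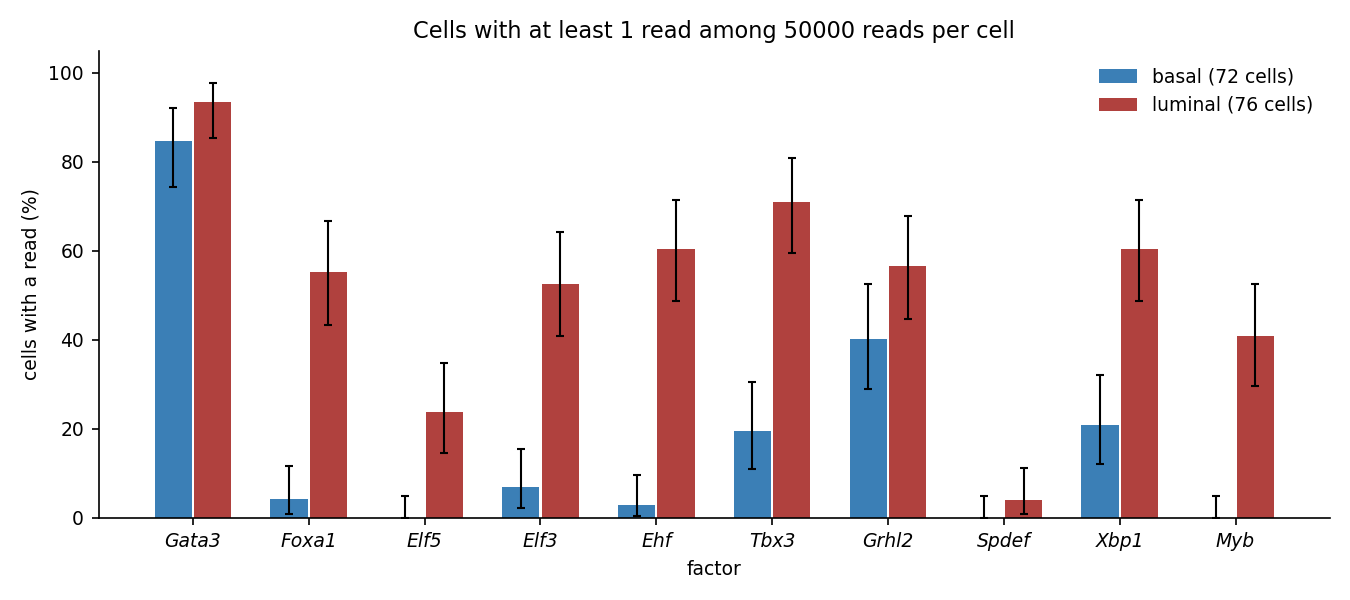
Share of cells (%) with at least 1 read of each factor after every cell was thinned to 50000 reads, for 72 basal and 76 luminal cells, with exact 95% binomial intervals. Intervals of the populations overlap for Gata3, Grhl2 and Spdef, and lie apart for the other 7 factors. The share of all genes whose intervals lie apart was not computed. Luminal cells had more detected genes of any kind at this depth, with medians of 3392 in luminal and 2626 in basal cells.

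Levels of different genes are compared per kilobase (RPKM). In luminal cells the order of summed RPKM was Gata3 at 308, Elf3 at 89.0, Foxa1 at 67.8, Ehf at 59.0, Xbp1 at 57.9, Tbx3 at 56.6, Elf5 at 22.3, Myb at 19.2, Grhl2 at 15.4 and Spdef at 3.09. The quartile ranges over cells overlapped for every pair of neighbours except Grhl2 and Spdef, so among the first 9 no neighbours were separated beyond the spread of cells. Few cells carried most reads of a factor. Only 2 luminal cells held 50% of the Elf5 reads and 5 held 50% of the Elf3 reads, against 10 cells for Gata3.

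A luminal cell had reads of a median of 5 of the 10 factors at 50000 reads (quartiles 4 and 7, highest 8), and a basal cell of 2 (quartiles 1 and 3, highest 4). Of 76 luminal cells 49 had 5 or more, and 0 of 72 basal cells did. Luminal cell 54, which had all 10 fibroblast markers and 2 luminal ones, had none of the factors at this depth.

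Basal cells differed between factors in how many reached 10 CPM, with 64 of 72 for Gata3, 33 for Grhl2, 20 for Xbp1 and 13 for Tbx3, but 4 for Elf3, 2 each for Foxa1 and Ehf, and 0 for Elf5, Spdef and Myb. At least 10 reads of Foxa1, Elf3 or Ehf at full depth, factors and a limit chosen after the values were seen, were found in 8 of 72 basal cells (11.1%), 7 on plate A and 1 on plate B. Each of the 8 had 7 to 10 of 10 basal markers, and none passed the limit for more than 1 of these 3 factors. Their luminal markers ran from 1 to 7 of 10, where the median over all 72 basal cells was 2. Basal cells 13 and 20 had 7 luminal markers each, and cell 20 also had 7 of 10 progenitor markers. Foxa1 appeared in basal cells 13 and 40, Ehf in cells 20 and 58, and Elf3 in cells 14, 26, 35 and 81. None of the 8 was among the cells with markers of another cell type.

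Within luminal cells the factors were next compared with each other. Correlations used log2 CPM with a prior count of 5 over 76 cells and are descriptions. Each pair of values shares a library and its depth, and the correlation of a single factor with the number of genes detected ran from -0.03 for Spdef to 0.40 for Elf3. Spdef was left out of counts because fewer than 20% of luminal cells had a read of it. Of the 36 pairs of the other 9 factors, 12 had r of at least 0.2, where 21.9% of all gene pairs did, and 1 had r of -0.2 or less, where 0.623% did. The median was 0.14, beside 0.10 over all pairs. At 50000 reads per cell, Tbx3 with Foxa1 and with Gata3, Foxa1 with Elf3, and Ehf with Elf5 and with Grhl2 reached 0.2. The lowest r there was -0.16, for Ehf with Tbx3, so none reached -0.2. Without the doubted cells 8 of the 36 pairs reached 0.2 and 1 reached -0.2, with a median of 0.11. Shares over all gene pairs were not computed for those cells or at 50000 reads, so no excess over all pairs is claimed there.

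The strongest pair was Foxa1 with Tbx3, at r = 0.35 (rho 0.32), with 0.39 on plate B alone and 0.33 on plate C alone. A read of both was found in 35 of 76 cells, where the product of their single shares gives 29.8 cells. Elf3 with Grhl2 had r = 0.32 (plate B 0.49, plate C 0.25) and Gata3 with Tbx3 had 0.31 (plate B 0.22, plate C 0.35). Foxa1 with Elf3 had 0.27 (plate B 0.16, plate C 0.34). These pairs were positive on both luminal plates. At 50000 reads per cell Elf3 with Grhl2 had only 0.14, whereas Foxa1 with Tbx3 had 0.31, Gata3 with Tbx3 0.30 and Foxa1 with Elf3 0.21. Luminal cell 24, a doubted cell, held 1317 of the 3064 Grhl2 reads and 2174 of the 5671 Elf3 reads of luminal plate B. Foxa1 with Myb had 0.27 over all luminal cells, but -0.15 on plate B and 0.42 on plate C. Elf5 and Ehf had r = 0.25 (rho 0.44), with 0.35 in plate B cells, 0.20 in plate C cells and 0.21 at 50000 reads per cell. Of the 18 cells with Elf5 14 also had Ehf, where the product gives 10.9 cells. An excess over the product was common, since joint cells lay above it in 30 of the 36 pairs of the 9 factors and below it in 6.

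In the opposite direction, Elf5 and Tbx3 had the lowest r of the pairs at full depth, -0.22 (rho -0.33). It was -0.11 in plate B cells, -0.28 in plate C cells, and -0.23 without the doubted cells. At 50000 reads per cell it was -0.14. Elf5 and Tbx3 were found together in 10 cells, where the product gives 12.8 cells. Ehf and Tbx3 had -0.15. No pair of the 9 factors excluded each other at this depth, the fewest joint cells being 7 for Elf5 with Myb (7.34 cells from the product).

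**Figure D3:**
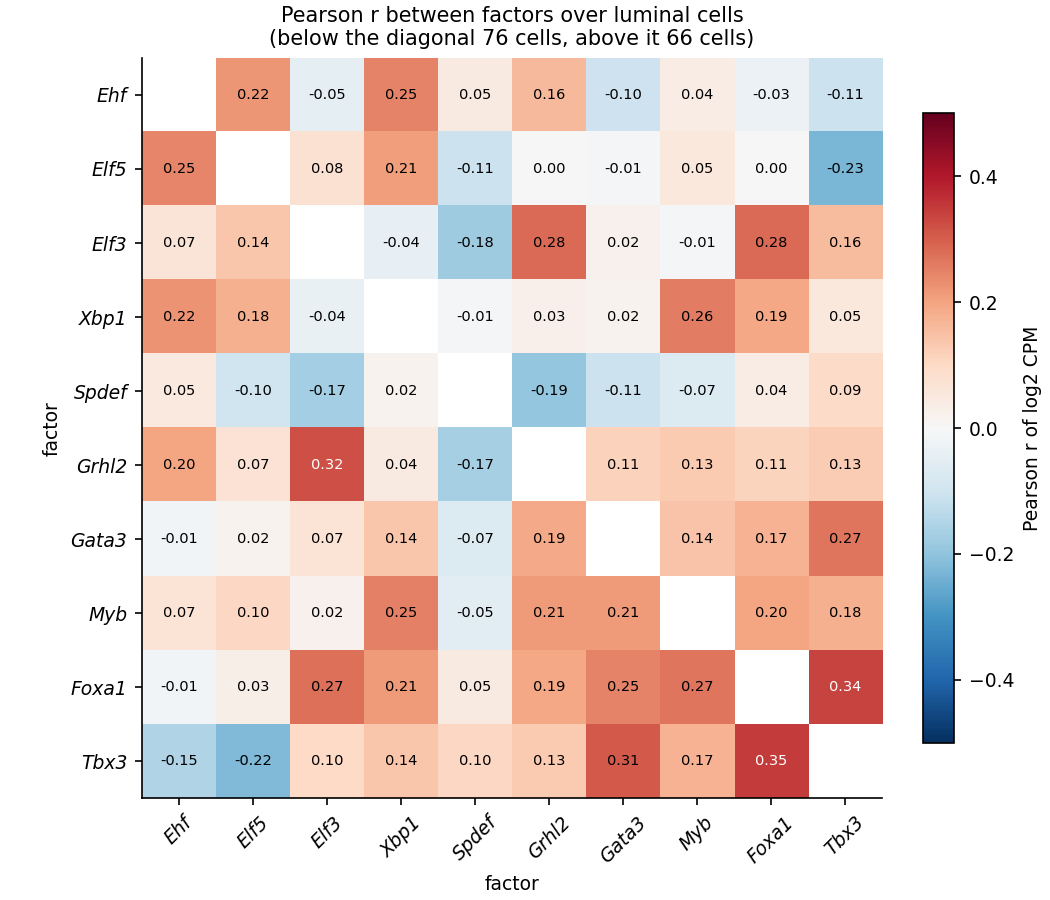
Pearson r of log2 CPM between the 10 factors, below the diagonal over 76 luminal cells and above it over the 66 left without doubted cells, with colour from blue for negative to red for positive r. The darkest red squares join Tbx3 with Foxa1 (0.35) and Elf3 with Grhl2 (0.32), and the darkest blue below the diagonal joins Tbx3 with Elf5 (-0.22). All values are at full depth.

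Foxa1 and Elf5, the factors tied to the hormone-sensing and alveolar fates whose promoters are printed above, were not mutually exclusive. A read of both was found in 11 of 76 luminal cells (14.5%, 7.45 to 24.4) at 50000 reads, where the product of their shares gives 13.1%. On plate B it was 6 of 24 cells and on plate C 5 of 52. Among the 11 cells, luminal cells 2, 20 and 22 had only 1 Elf5 read each, and luminal cells 28 and 65 only 1 Foxa1 read each. At 5 reads or more of each factor 4 of 76 cells had both (5.26%, product 4.36%), the doubted luminal cell 24 among them. At full depth 30 of 76 cells had both, with a product of 36.8% beside the 39.5% found. Their correlation was 0.03.

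The factors were then set against markers that hold none of them. The score of a luminal cell is the number of hormone-sensing markers (Esr1, Pgr, Prlr, Areg, Cited1, Prom1, Ly6a, Stc2, Wnt4, Tnfsf11) minus that of progenitor markers (Kit, Cd14, Aldh1a3, Csn3, Wfdc18, Trf, Lcn2, Mfge8, Lalba, Hp) detected at 50000 reads, divided by 10. It ran from -0.8 to 0.9 with a median of 0.2, above 0 in 44 cells, below 0 in 26 and at 0 in 6. The marker counts themselves had r = -0.19. The score is a range, and many cells lie near 0. Hormone-sensing markers were detected in 12 (Tnfsf11) to 73 (Prlr) of the 76 luminal cells, and progenitor markers in 14 (Aldh1a3) to 60 (Mfge8). The 0 that divides the sides therefore depends on the markers listed. Lcn2 was also detected in 68 of 72 basal cells.

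Of the 9 factors 4 had r of at least 0.3 with the score, where 4.27% of 5685 genes did, and 1 had -0.3 or less, where 2.11% did. Tbx3 had 0.49 (rho 0.42, plate B 0.39, plate C 0.53), so its level was higher in cells with more hormone-sensing markers. Ehf had -0.51 (rho -0.51, plate B -0.60, plate C -0.49) and went the opposite way. Myb had 0.36 (plate B 0.33, plate C 0.36) and Gata3 0.34 (plate B 0.39, plate C 0.32), whereas the 0.38 of Foxa1 came from plate C, where it was 0.52 against -0.03 on plate B. Elf5 had -0.19 (rho -0.40). Grhl2 at 0.19, Spdef at 0.10, Xbp1 at 0.08 and Elf3 at -0.06 lay nearer 0. A Grhl2 read at 50000 was found in 31 of 44 cells with more hormone-sensing markers (70.5%, 54.8 to 83.2) and in 10 of 26 with more progenitor markers (38.5%, 20.2 to 59.4), with intervals that overlap, while its summed levels there were 80.2 and 73.7 CPM. Without the doubted cells Tbx3 had 0.48 and Ehf -0.49.

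By level, the 26 cells with more progenitor markers had a median Ehf of 229 CPM and the 44 with more hormone-sensing markers 5.58 CPM. Their ranges of 0 to 1967 and 0 to 1066 CPM overlapped. Gata3 went the other way, with medians of 337 and 921 CPM, and so did Tbx3 with 37.5 and 152 CPM and Foxa1 with 0.92 and 71.0 CPM. The share with a read of Ehf was 21 of 26 (80.8%, 60.6 to 93.4) on the progenitor side and 20 of 44 (45.5%, 30.4 to 61.2) on the other, and that of Foxa1 was 9 of 26 (34.6%, 17.2 to 55.7) and 29 of 44 (65.9%, 50.1 to 79.5). For each of these factors the intervals of the sides overlapped.

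Tbx3 was close to undetected at the progenitor end. In the 12 cells with a score of -0.4 or less, a limit set after the values were seen, its highest level was 2.02 CPM and 1 cell had a read at 50000. In the 29 cells with a score of 0.4 or more, 27 had a read and the median was 305 CPM. Ehf had medians of 464 and 1.63 CPM in the same cells, and Gata3 184 and 824 CPM. Of the 12 cells 2 carried markers of another cell type, and their part in this was not tested.

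Of all 76 luminal cells 57.9% lay on the hormone-sensing side and 34.2% on the progenitor side, and the cells with a read of Foxa1 or Elf5 at 50000 reads were set beside these shares. All 7 cells with Elf5 but no Foxa1 lay on the progenitor side, and all 7 were on plate C. Among them, luminal cells 39, 56, 61 and 81 had only 1 Elf5 read each. On plate B all 6 cells with Elf5 also had Foxa1. Of the 31 cells with Foxa1 but no Elf5, 22 lay on the hormone-sensing side and 6 on the progenitor side. Of the 11 cells with both, 7 (63.6%) lay on the hormone-sensing side and 3 on the progenitor side, with a median score of 0.2, close to the shares and the median over all luminal cells. Of the 27 cells with neither, 15 (55.6%) lay on the hormone-sensing side and 10 on the other. Of the 7 cells with Elf5 alone 3 were doubted ones.

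**Figure D4:**
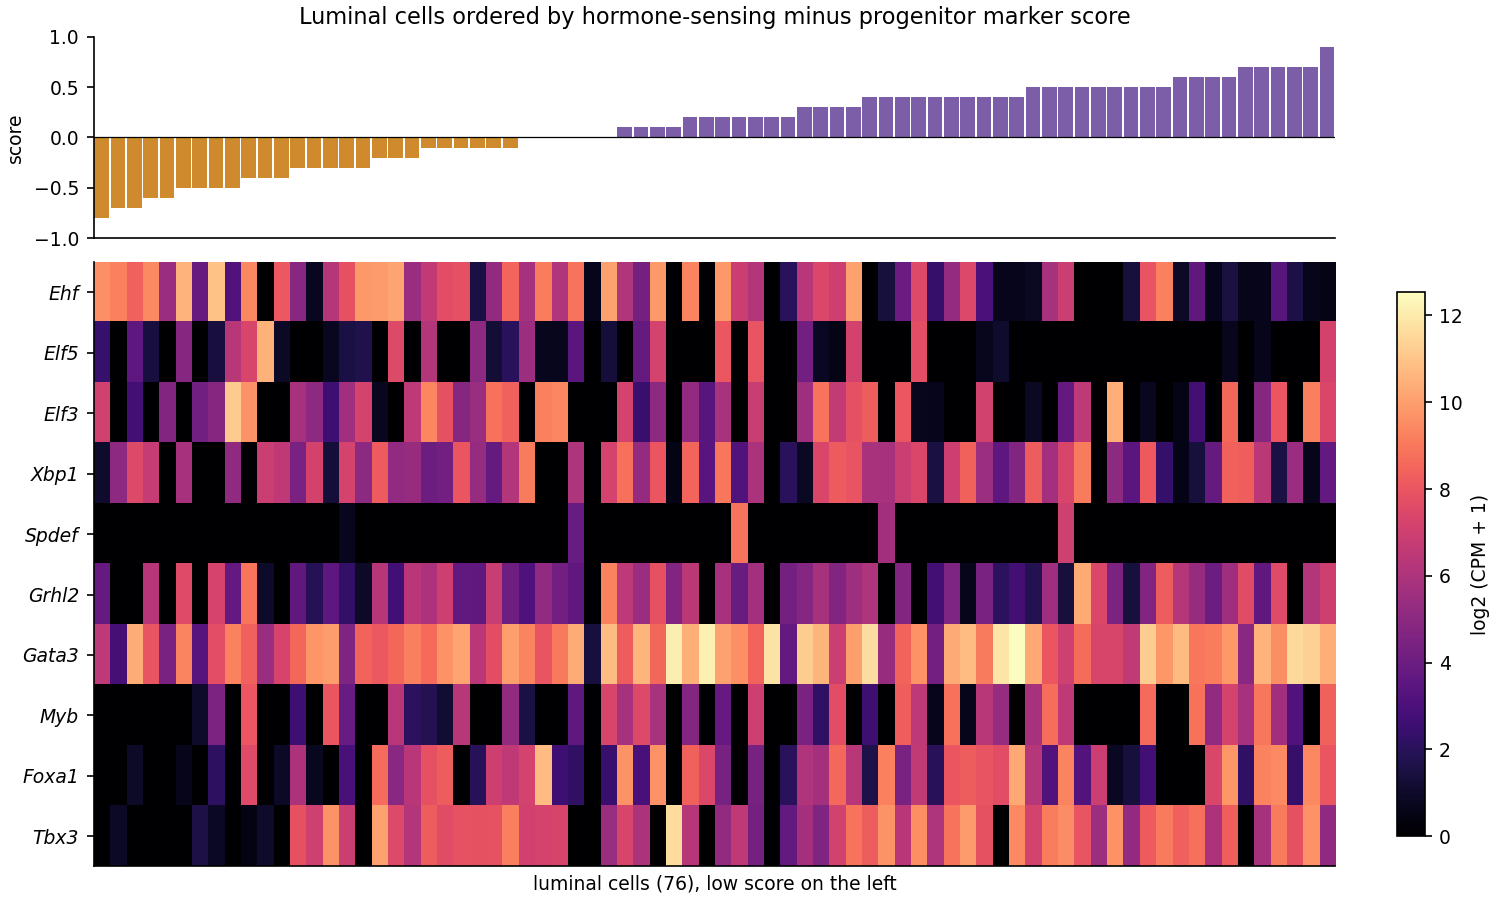
Luminal cells (76) from left to right by rising marker score, with the score as bars above and the level of each factor as log2 (CPM + 1) in colour below, dark for 0. Ehf is bright on the left, Tbx3 and Foxa1 are bright on the right, and Tbx3 is at or near 0 in the leftmost cells.

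**Figure D5:**
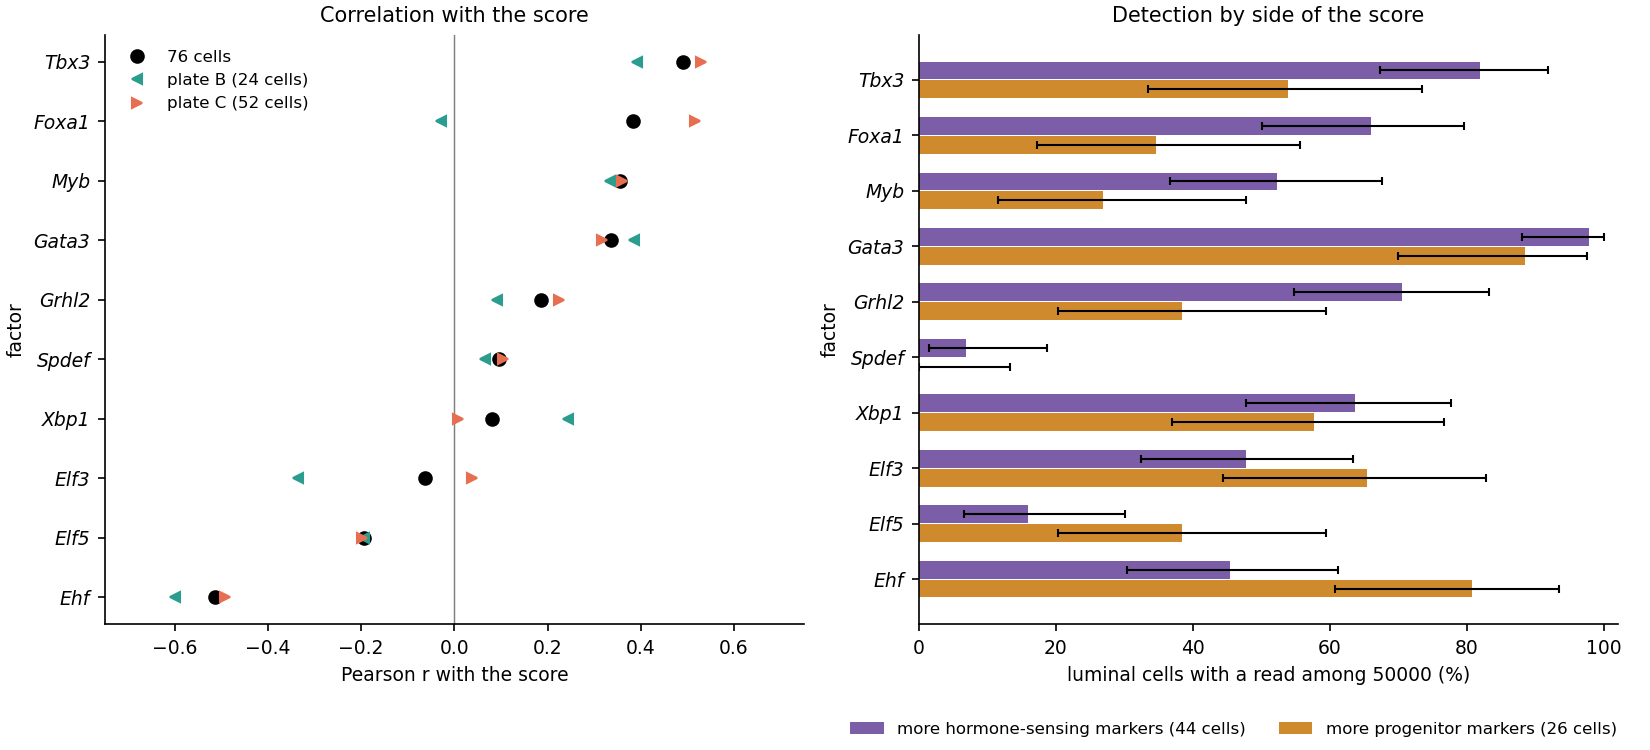
Left, Pearson r of each factor's log2 CPM with the marker score over 76 luminal cells and on plates B and C. Right, share of cells (%) with a read of each factor among 50000 reads, with exact 95% binomial intervals, in the 44 cells with more hormone-sensing and the 26 with more progenitor markers. Ehf lies furthest left at -0.51 and Tbx3 furthest right at 0.49, and for Foxa1 the plates lie apart.

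Other genes were ranked by their correlation with each factor over the 76 luminal cells, among genes with a read in at least 20% of them and r above 0.3 on each plate. These genes share cells and depth with the factor, and the most alike of many candidates are high by choice. Tbx3 was most like Ptn (r = 0.74), a secreted growth factor, Wfdc2 (0.69) and Nek7 (0.66), the highest 3 values found for any factor except the 0.67 of Ehf. Ehf was most like Wfdc18 (0.67), a whey acidic protein family gene that is also in the progenitor list, then Ogfrl1 (0.64) and Phlda1 (0.57). Elf5 was most like Lipa (0.50), a lysosomal lipase, Muc1 (0.46), a luminal mucin, and complement C3 (0.46). Gata3 was most like Jun (0.55), an AP-1 factor, Nck2 (0.52) and Krt19 (0.50), a luminal keratin. Elf3 was most like Diablo (0.60) and Immt (0.56), both of mitochondria, and Lsm6 (0.52), and Foxa1 like Ebpl (0.51), Cnot6 (0.51) and Gna13 (0.48). Grhl2 was most like Pdzd11 (0.50), Mrpl54 (0.48) and Tmem14c (0.45), Xbp1 like Cdc5l (0.53), Uqcrc2 (0.49) and Ing1 (0.48), and Myb like Vps13a (0.49), Eps15 (0.47) and Cd200 (0.46).

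The wider set of regulators was more mixed than the 10 factors. Of 27 other genes known as luminal regulators, 17 were higher in luminal cells by at least 1 on the log2 scale, 4 were lower by at least 1 and 6 lay between, with a median of 1.39. The largest ratios were those of Foxi1 and Esr1. Foxi1, with 0 basal reads, was at least 4279-fold above the 3 reads that a count of 0 allows, yet 16344 of its 17406 reads came from a single cell. Esr1, the oestrogen receptor, had 100 CPM in luminal and 0.70 CPM in basal cells, a ratio of 5.89. The smallest ratios were those of Tfap2c (-2.90) and Cebpb (-2.04), which were higher in basal cells. Of 12 basal regulators 11 passed the gene filter, of which 8 were higher in basal cells by at least 1 and 1 in luminal cells, with a median of -3.30 and the lowest ratios for Snai2 (-6.13) and Id4 (-5.58).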

How the data were processed

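Single-cell RNA was measured in 186 cells grouped by the submitters' labels. The authors aligned read pairs to mm10 with Subread, counted them per RefSeq gene with featureCounts (named in the submitters' processing notes), and deposited raw counts per gene and cell. Use of strand and treatment of reads that map to several genes are not given in the sources used here, so Gata3 and Foxa1 may share reads with the genes that overlap them, and reads of the antisense genes Tbx3os1 and Gm16136, which were not counted on their own, may be counted as Tbx3 and Grhl2. A series-wide table held the same counts and was not used.

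RefSeq for GRCm38.p6 (mm10) gave coordinates and a symbol for 25275 of 27179 identifiers, and the 1904 others (1.94% of counts) were left out. After removal of 15 mitochondrial and 125 ribosomal protein genes, the study's thresholds were applied (50000 reads and 1000 genes for basal, 100000 reads and 1500 genes for luminal cells). Genes with at least 1 CPM in at least 3 cells were kept. Counts were summed per population. Detection used 50000 reads drawn from each cell without replacement. The RPKM values used the deposited gene lengths. No pair of cells had identical counts. Doublets were not called. The study inspected capture sites by microscope. Some doubted cells still held markers of more than 1 cell type, such as luminal cell 63 with 8 basal and 7 luminal markers. Whether such wells held more than 1 cell was not tested. The ratio and correlation steps were tested on simulated data. Computation used Python 3.11.15 with pandas 2.3.3 and scipy 1.17.1, and scaling factors came from edgeR 4.0.16 and DESeq2 1.42.0.

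The factors, the marker and regulator lists and the rule for named genes were chosen with earlier results of these data known. Named are the 10 factors, the 3 genes most correlated with each factor read in at least 20% of luminal cells, the 2 largest and 2 smallest ratios of the other luminal regulators and the 2 lowest of the basal regulators. Single cells and score limits given beyond this were chosen after their values were seen. Alternatives covered cell and gene filters, plates, scaling, the added CPM, depth, read minimum and doubted cells.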

Additional observations from a re-analysis of the deposited data

Results flagged for a closer look

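Reads of the 10 factors were also present in cells below the thresholds, which were left out of every comparison and entered only the alternative with no cell filter. In the 24 basal cells below them the factors made up 275 CPM (73 reads, 22 of 24 cells with a read), where a count of 0 would allow 11.3 CPM, against 575 CPM in passing basal cells. In the 14 luminal cells below them they made up 1134 CPM (468 reads, 14 of 14 cells), where a count of 0 would allow 7.27 CPM, against 2240 CPM in passing luminal cells. Gata3 gave 68.5% of these reads in basal and 81.8% in luminal cells. Foxa1 had 14 reads in the luminal and 0 in the basal cells below the thresholds.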

How the results depend on the processing

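The median ratio of the 10 factors, 3.01, was 4.33 on plate B alone, 3.56 between basal plate A and luminal plate C, 2.85 with TMM and 2.83 with median-of-ratios factors, 3.28 as a mean over cells, 4.43 and 2.41 with 0.1 and 10 CPM added, and 3.14 without the 2 cells that went against their label, an alternative chosen after seeing the data like the one without all 18 doubted cells. The count of factors with a ratio of at least 1 was 8 on plate B alone and with 10 CPM added, and 9 under the other alternatives run. Joint detection of Foxa1 and Elf5, 14.5% of luminal cells, was 39.5% at full depth, 5.26% at 5 reads or more and 25.0% on plate B alone, and ran from 10.5% to 14.5% over 19 further thinning draws. On plate B alone 10 of the 45 correlations between factors changed sign. Among those of at least 0.2 in size between factors or 0.3 with the score, the changes were Foxa1 with Myb (-0.15), Gata3 with Myb (-0.018) and Foxa1 with the score (-0.028), and the cause was not tested. No paired analysis was possible because a cell number only names a cell and no test was made. Plate and population cannot be told apart outside plate B. At 24 luminal cells on that plate, single cells weigh heavily, and a factor with 0 reads among 50000 may still be transcribed.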
